A study of Mus musculus with 6 samples.

Results

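Collagens, laminins, proteoglycans and other proteins of the extracellular matrix were followed as a set of 33 genes, chosen by symbol from the 55487 genes of the count tables. The set holds fibrillar, type VI and basement membrane collagens, laminins with nidogens and perlecan, small proteoglycans, microfibril and matricellular proteins, crosslinking oxidases, and 4 matrix genes that macrophages are known to make (Fn1, Tgfbi, Vcan and Thbs1). The cells were macrophages of Lewis lung carcinoma, a mouse lung tumour line that had been injected under the skin of C57BL/6 mice, the tumours being taken between day 15 and day 17. Tumours were digested with collagenases and DNase, CD11b-positive cells were enriched with magnetic beads, and cells with CD11b and F4/80 but no Ly6C or Ly-6G were sorted into an MHC-II high and an MHC-II low population, per the labels' protocols. Each label has 3 libraries of rRNA-depleted total RNA, 1 from each of 3 numbered batches. The labels used here give the strain but no genotype, age or treatment, and do not tell whether libraries stem from different animals. A p-value therefore speaks of the scatter among the libraries, part of which may be technical.

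The matrix is the protein scaffold around cells. Fibrillar collagens form its cables, type VI collagen makes beaded filaments beside them, and type IV collagen, laminins, nidogens and perlecan build the sheets on which epithelium and endothelium rest. Fibroblasts and related stromal cells make most of these proteins in tissues and tumours, while macrophages secrete fibronectin, TGF-beta-induced protein, versican and thrombospondin, degrade collagen and take it up through receptors.

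Promoters are shown for Col3a1, the most abundant collagen of the set, for Col6a3 and Vcan, whose levels went with batch, and for Col15a1, which had the smallest p between the labels. They are the 250 bases before the start in RefSeq (GRCm38.p6), 5′ to 3′ on the strand of the gene. RefSeq promoters matched 22 of the 33 genes. Capitals mark matches, on either strand, to 3 motifs: the CCAAT box, the GC box (GGGCGG) and the TATA box (TATAAA). A match on the opposite strand appears as its reverse complement. No motif overlapped another in the windows shown. Over all 32851 promoters of the same table, 33.85% held CCAAT, 32.74% held GGGCGG and 12.37% held TATAAA in this window.
Col3a1, chr1:45311288-45311537, plus strand: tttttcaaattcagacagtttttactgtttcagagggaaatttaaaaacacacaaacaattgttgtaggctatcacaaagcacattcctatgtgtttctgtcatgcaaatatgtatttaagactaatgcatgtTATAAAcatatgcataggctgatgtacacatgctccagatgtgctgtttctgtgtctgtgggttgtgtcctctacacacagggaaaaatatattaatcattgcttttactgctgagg
Col6a3, chr1:90843972-90844221, minus strand: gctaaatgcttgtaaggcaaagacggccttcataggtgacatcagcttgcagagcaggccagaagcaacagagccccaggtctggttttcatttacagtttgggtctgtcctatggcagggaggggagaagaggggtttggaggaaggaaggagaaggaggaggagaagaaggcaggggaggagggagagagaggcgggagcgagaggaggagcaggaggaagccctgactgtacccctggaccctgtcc
Vcan, chr13:89742513-89742762, minus strand: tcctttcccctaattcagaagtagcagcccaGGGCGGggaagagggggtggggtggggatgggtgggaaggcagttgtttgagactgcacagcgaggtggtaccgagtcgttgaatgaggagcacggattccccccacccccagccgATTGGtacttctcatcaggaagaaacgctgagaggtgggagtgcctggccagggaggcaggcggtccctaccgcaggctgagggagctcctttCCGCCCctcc
Col15a1, chr4:47207762-47208011, plus strand: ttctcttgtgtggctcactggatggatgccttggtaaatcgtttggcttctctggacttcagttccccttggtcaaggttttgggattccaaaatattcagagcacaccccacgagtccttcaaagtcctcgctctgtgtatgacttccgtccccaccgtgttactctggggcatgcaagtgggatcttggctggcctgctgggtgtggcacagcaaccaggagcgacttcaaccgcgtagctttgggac
The Col3a1 window held 1 TATAAA, which begins 117 bases before the start. The Vcan window held CCAAT on the opposite strand 103 bases before the start, with GGGCGG at 219 bases and, on the opposite strand, at 10 bases. Those of Col6a3 and Col15a1 held none of the 3 motifs.

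The counts came from 10202879 to 25473051 reads in genes per library. Labelled low replicate 3 differed in read content from the rest: 47.3% of its reads in genes fell in 1 rRNA gene copy (3.85% to 13.5% in the other libraries), and it detected 17858 genes (20981 to 21636 in the others). Transcripts of MHC class II went against the labels, with H2-Aa at 4.396, 5.48 and 6.69 CPM (counts scaled to library size by TMM) in those labelled MHC-II high and 1377, 1166 and 1506 CPM under the low label. H2-Ab1, H2-Eb1 and Cd74 were lower under the same label, and each was called (edgeR quasi-likelihood test, adjusted p from 2.59e-05 to 5.77e-04). The populations are therefore named by their labels, and a negative log2 fold change means a lower level in the libraries labelled MHC-II high. Whether the labels were exchanged cannot be told from the sources used here, and if they were, every direction between the labels would turn with respect to the sorted populations. Markers of macrophages were abundant in all 6 libraries, the 12 listed genes summing to 7057 to 12829 CPM.

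The levels of the set spanned several orders of magnitude. Compared per kilobase of exon, Fn1 was the highest, at 171 to 497 CPM per kb over the 6 libraries, followed by Tgfbi at 216 to 437 CPM per kb, Thbs1 at 43.5 to 126 and Ecm1 at 34.8 to 149. Fn1 and Tgfbi did not overlap with Thbs1 or Ecm1, while the ranges within each pair overlapped. Next by its mean was Col3a1, at 5.35 to 46.6 CPM per kb, which overlapped the ranges of Thbs1 and Ecm1. Col1a1 and Col1a2, the chains of type I collagen and usually the main products of fibroblasts, stood at 0.087 to 0.49 and 0.032 to 0.13 CPM per kb. Col3a1 per kb was thus 22.5 to 325 times Col1a1 and 85.2 to 834 times Col1a2. These ratios are imprecise, as Col1a1 had 13 to 23 reads per library and Col1a2 had 9 to 24. They also depend on the exon length, which counts all annotated exons and is 12.4 kb for Col1a2. Fbln2, Lama4 and Lox were as scarce, at 0.0084 to 0.084, 0.018 to 0.14 and 0.012 to 0.13 CPM per kb.

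**Figure D1:**
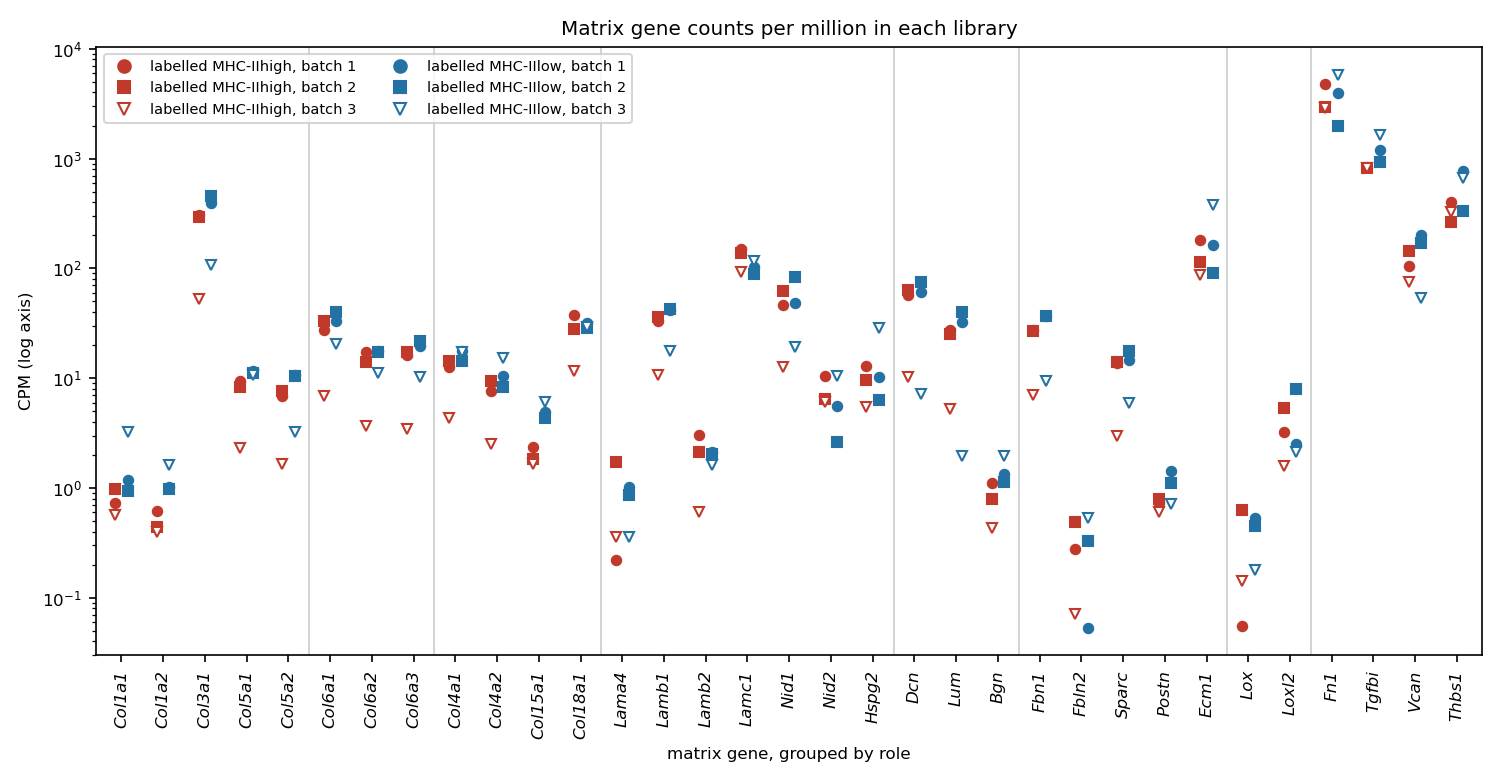
CPM of each of the 33 matrix genes (log axis) in the 6 libraries, grouped by role, in red for libraries with the high label and blue for those labelled low, with the symbol giving the batch and open triangles batch 3. Fn1 and Tgfbi lie highest, and for Col3a1, Dcn, Lum, Nid1 and Fbn1 both open triangles lie below the other 4 points.

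Between the labels, no matrix gene passed edgeR's test. Of the 33 genes, 31 passed the filter on low counts, and 0 of these were called higher or lower at an adjusted p of 0.05 by edgeR, where 0.446% of all 14140 tested genes were called (13 higher and 50 lower). At an unadjusted p of 0.05, 4 matrix genes were lower (Col15a1, Col1a2, Thbs1 and Tgfbi) and 0 were higher, beside 1130 lower and 574 higher among all genes. limma-voom called 0 as well, and DESeq2 called 1, Col15a1, where 2.42% of all genes were called. The fold changes were below 0 in 29 of 31 genes, against 51.5% of all tested genes, and their median was -0.49, against -0.02. The median was -0.51 for the 4 genes known from macrophages and -0.49 for the other 27.

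That lean rested in part on batch 3. Within batches 1, 2 and 3 the label difference was below 0 in 23, 21 and 27 of the 31 genes, with medians of -0.27, -0.27 and -1.04, and 16 genes were below 0 in all 3 batches. Without the library labelled MHC-II high replicate 3 the count was 21 of 31. The median of the 27 genes other than those listed as known from macrophages was then -0.05. Leaving out labelled low replicate 3 instead moved the median the other way, to -0.67, with a count of 27 of 31. Each of these 2 fits keeps batch 3 under 1 label only. Without both libraries of batch 3 they were 24 of 31 and -0.28, and with an offset for GC content 24 of 31 and -0.28. Scaling by total counts gave 25 of 31. Every labelled high library lay below every labelled low library for 5 genes, Col1a2, Col5a1, Col15a1, Bgn and Tgfbi, which is 5 of 31 where 9.48% of all tested genes did so. No matrix gene had the opposite separation, while 1480 genes of all tested did.

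**Figure D2:**
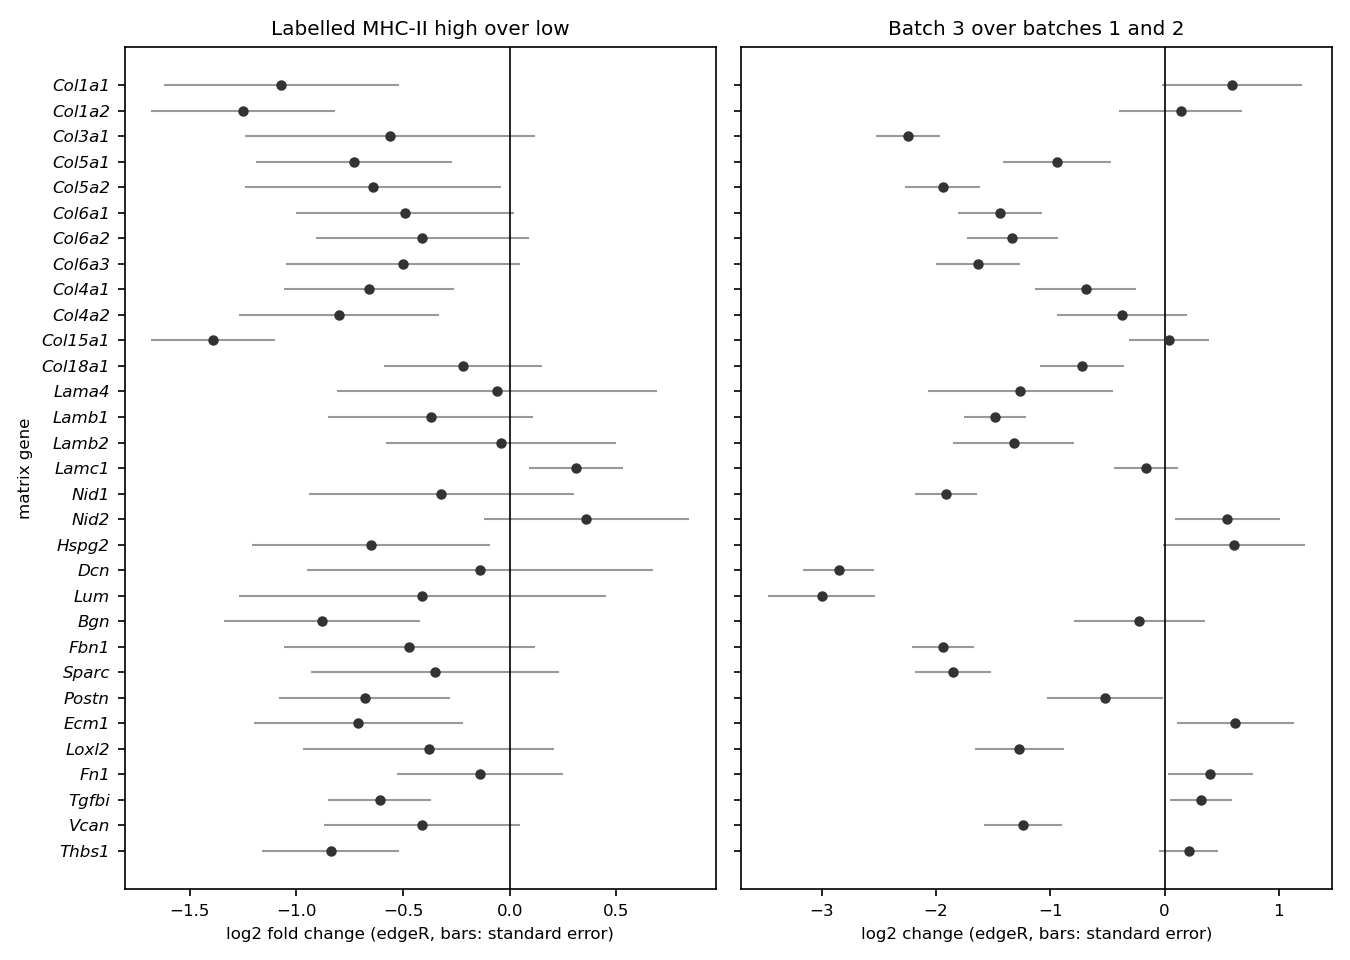
Log2 fold changes of the 31 tested matrix genes with their standard errors (edgeR), for labelled MHC-II high over low on the left and for batch 3 over batches 1 and 2 on the right. On the left 29 of 31 points lie below 0, with Lamc1 and Nid2 above it, and on the right Lum and Dcn lie lowest.

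Among the fibrillar collagens, Col3a1, the chain of type III collagen (chromosome 1 from 45311538 to 45349706, GRCm38), carried most of the reads. It stood at 307, 293 and 52.5 CPM in the labelled high libraries against 398, 457 and 108 CPM in the labelled low ones, in batches 1, 2 and 3. Levels of both labels overlapped, and the batch 3 library was the lowest of each label. Within batches 1, 2 and 3 the log2 label differences were -0.37, -0.64 and -1.04. The fold change between labels was -0.56 with a standard error of 0.68 (edgeR, adjusted p = 0.674), which includes the scatter between batches. With the replicate block it was -0.68 (edgeR, adjusted p = 0.493). Col1a2, on chromosome 6 from 4504814 to 4541544, rested on few reads, 11, 10 and 11 in the labelled high libraries and 19, 24 and 9 in the others. In CPM these were 0.61, 0.45 and 0.39 against 1.01, 0.98 and 1.61, without overlap, for a fold change of -1.25 ± 0.43 (SE, edgeR, adjusted p = 0.355). Its partner chain Col1a1 had 13, 22 and 16 reads and 22, 23 and 18 reads. The CPM of Col1a1 overlapped between labels, the highest value, 3.21 CPM, being that of labelled low replicate 3. Col5a1 and Col5a2, chains of type V collagen, which takes part in starting fibrils, behaved unlike each other in batch 3. Col5a1 stood at 9.52, 8.33 and 2.32 CPM in the labelled high libraries against 11.5, 11.1 and 10.7 CPM in the labelled low ones. Col5a2 stood at 6.85, 7.62 and 1.64 and 10.7, 10.5 and 3.21 CPM. Only the labelled high library of batch 3 was low for Col5a1, and both libraries of batch 3 were low for Col5a2.

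The 3 chains of type VI collagen, which assemble into 1 molecule, were all lowest in batch 3. Col6a1 stood at 27.2, 33.01 and 6.86 CPM in the labelled high libraries against 33.3, 39.7 and 20.5 CPM in the labelled low ones. Col6a2 stood at 17.3, 14.0 and 3.68 and 17.7, 17.2 and 11.2 CPM, and Col6a3 at 16.2, 17.3 and 3.47 and 19.7, 21.8 and 10.2 CPM. For each chain the lowest library was labelled high replicate 3 and the next labelled low replicate 3. The fold changes between labels were -0.49, -0.41 and -0.50, none of which passed the test (edgeR, adjusted p from 0.632 to 0.671), and that of Col6a2 was 0.02 without labelled high replicate 3.

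Basement membrane collagens included the gene with the smallest p of the set. Col15a1, a collagen of the zone beneath basement membranes (chromosome 4 from 47208161 to 47313167), stood at 2.34, 1.83 and 1.64 CPM in the labelled high libraries against 4.96, 4.33 and 6.07 CPM in the labelled low ones. The highest of the former lay below the lowest of the latter, and the batch 3 library was the lowest under the high label and the highest under the low one. The fold change was -1.39 ± 0.29 (SE), and edgeR gave it an unadjusted p of 0.00116 and an adjusted p of 0.117. DESeq2 called it at an adjusted p of 0.0088, and the fit without a filter on low counts at 0.0374. Without labelled low replicate 2 its adjusted p was 0.0378, in a fit that called 784 of all genes lower, against 50 in the main fit. Endothelium is one known source of this collagen, and the endothelial marker Pecam1 stood at 2.56, 3.03 and 4.00 CPM against 6.45, 5.15 and 8.21 CPM, for a fold change of -1.02 (adjusted p = 0.258, edgeR). Kdr, another endothelial marker, had the opposite sign, at 0.70 (edgeR, adjusted p = 0.384). Both passed with the GC offset and the replicate block, at an adjusted p of 0.0494 for Pecam1 and 0.0311 for Kdr, and the part of these cells in the Col15a1 difference was not tested. The 15 endothelial markers summed to 19.5 to 26.4 CPM for the high label, and to 17.7 to 33.01 CPM under the low one, and none was at 0 in all libraries.

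Col4a1 and Col4a2, the chains of the commonest type IV collagen, start head to head and overlap, on chromosome 8 from 11198423 to 11312826 and from 11312805 to 11449287. Because the strand setting of the counting is not given in the sources used here, reads in the overlap cannot be assigned with certainty. Col4a1 stood at 12.5, 14.4 and 4.36 CPM against 17.7, 14.2 and 17.3 CPM, and Col4a2 at 7.57, 9.36 and 2.503 against 10.5, 8.30 and 15.3 CPM. The ratio of Col4a1 to Col4a2 per kilobase was 1.36 to 1.55 in 5 libraries and 1.00 in labelled low replicate 3. Col18a1, whose end fragment is endostatin, stood at 37.6, 27.8 and 11.7 CPM against 32.0, 28.5 and 29.1 CPM. For these 3 genes labelled high replicate 3 was the lowest library and labelled low replicate 3 lay within or above the range of batches 1 and 2. The fold change of Col18a1 was -0.22 (edgeR, adjusted p = 0.768), and it was above 0, at 0.16, with an offset for GC content and, at 0.08, with scaling by total counts.

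Laminins and their partners were led by Lamc1, the gamma chain shared by most laminins. It stood at 150.3, 138 and 93.2 CPM in the labelled high libraries against 103, 89.5 and 116 CPM in the labelled low ones, and was above its labelled low partner in batches 1 and 2 and below it in batch 3. Its fold change of 0.31 ± 0.22 (SE) missed the threshold (edgeR, adjusted p = 0.524). With an offset for GC content and the replicate block together it passed, at 0.57 with an adjusted p of 0.0289. The beta chain gene Lamb1 stood at 33.5, 35.7 and 10.6 and 41.6, 43.0 and 17.7 CPM, low in both libraries of batch 3. Per kilobase Lamb1 was 0.095 to 0.40 times Lamc1, and the ratio was lowest in the libraries of batch 3. Lamb2 ranged from 0.61 to 3.06 CPM and the alpha chain gene Lama4 from 0.22 to 1.74 CPM. Of the nidogens, which link laminin to type IV collagen, Nid1 stood at 46.1, 62.6 and 12.6 and 48.0, 82.7 and 19.3 CPM, again low in batch 3. Nid2 stood at 10.4, 6.50 and 6.08 and 5.54, 2.62 and 10.5 CPM and overlaps exons of Rtraf on the opposite strand, a gene with 8824 reads where Nid2 had 730, so its values are uncertain. Hspg2, which encodes the proteoglycan perlecan, stood at 13.0, 9.71 and 5.43 and 10.3, 6.38 and 28.9 CPM. Its highest value came from labelled low replicate 3, and its fold change of -0.65 was 0.45 without batch 3 and 0.14 with an offset for GC content.

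The small proteoglycans decorin and lumican bind collagen fibrils and are typical of fibroblasts. Dcn (chromosome 10 from 97479609 to 97518143) stood at 57.5, 63.7 and 10.3 CPM in the labelled high libraries against 60.3, 75.3 and 7.14 CPM in the labelled low ones. Lum, its neighbour on the same chromosome from 97565128 to 97572703, stood at 27.2, 25.3 and 5.26 and 32.7, 40.2 and 1.96 CPM. In both genes the libraries of batch 3 lay far below the other 4, and the labels overlapped. The label fold changes were -0.14 and -0.41 (edgeR, adjusted p = 0.938 and 0.815), and each had the opposite sign when single libraries were left out, reaching 0.35 and 0.09. Bgn, the related biglycan, was near the limit of counting at 1.11, 0.80 and 0.43 and 1.33, 1.14 and 1.96 CPM, and did not follow Dcn in batch 3.

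Of the microfibril and matricellular genes, Fbn1, which encodes fibrillin, stood at 27.2, 26.8 and 7.08 CPM in the labelled high libraries against 37.1, 36.6 and 9.46 CPM in the labelled low ones. Its log2 label differences within batches 1, 2 and 3 were -0.45, -0.45 and -0.42. It did not pass with the replicate block (edgeR, adjusted p = 0.578). Sparc, a secreted collagen-binding protein, stood at 13.9, 13.9 and 3.00 and 14.6, 17.9 and 5.89 CPM. Both were low in batch 3 under either label. Postn, periostin, ranged from 0.61 to 1.44 CPM. Ecm1 was far more abundant, at 180.5, 115 and 87.8 CPM against 162, 90.8 and 375 CPM, and labelled low replicate 3 held its highest value. The fold change of Ecm1, -0.71 ± 0.49 (SE, edgeR, adjusted p = 0.51), was 0.23 without batch 3. Fbln2 had 5, 11 and 2 reads for the high label and 1, 8 and 3 for the low one, and the crosslinking enzyme gene Lox had 1, 14 and 4 and 10, 11 and 1, so that both stayed under the filter and no difference was detectable at this depth. The related Loxl2 stood at 3.23, 5.35 and 1.57 and 2.504, 8.01 and 2.14 CPM, highest in batch 2 under either label.

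The 4 genes known from macrophages held most of the matrix reads, summing to 4121 to 6108 CPM for the high label, and 3419 to 8185 CPM under the low one, against 337 to 1014 and 836 to 1114 CPM for the other 29 genes. Fn1, fibronectin (chromosome 1 from 71585520 to 71653200), stood at 4769.8, 2952 and 2905 CPM in the labelled high libraries against 3929, 1994 and 5812 CPM in the labelled low ones. The labels overlapped, and the sign turned from 0.28 and 0.57 within batches 1 and 2 to -1.0 within batch 3. Its fold change of -0.14 ± 0.39 (SE, edgeR, adjusted p = 0.86) was above 0 with scaling by total counts (0.32), with an offset for GC content (0.24) and without batch 3 (0.39). Tgfbi, TGF-beta-induced protein (chromosome 13 from 56609523 to 56639562), stood at 835, 824 and 815 CPM and 1194, 922 and 1649 CPM. All labelled high values were within a narrow band below all labelled low ones, and the fold change was -0.61 ± 0.24 (SE, edgeR, unadjusted p = 0.0322, adjusted p = 0.39). Thbs1, thrombospondin-1 (chromosome 2 from 118111876 to 118127133), stood at 398, 264 and 327 CPM and 763, 331 and 672 CPM. It was lower under the high label within each batch, with log2 differences of -0.94, -0.33 and -1.04, yet the labels overlapped because batch 2 was low in both. The fold change was -0.84 ± 0.32 (SE, edgeR, adjusted p = 0.386). With an offset for GC content and the replicate block it passed the test, at -0.68 with an adjusted p of 0.0345, and it passed without labelled low replicate 2, at 0.0287. Those fits called 357 and 784 of all genes lower, against 50 in the main fit. Vcan, versican (chromosome 13 from 89655312 to 89742509), stood at 104, 145 and 74.7 CPM and 203, 172 and 53.2 CPM, with its lowest values in batch 3. Its log2 label differences within batches 1, 2 and 3 were -0.96, -0.24 and 0.49.

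The set also divided by batch. Both libraries of batch 3 lay below all 4 others for 15 of the 31 tested genes, where 5.15% of all tested genes did so, and above them for 0 genes (371 of all tested). The 15 genes were Col3a1, Col5a2, Col6a1, Col6a2, Col6a3, Lamb1, Lamb2, Nid1, Dcn, Lum, Fbn1, Sparc, Postn, Loxl2 and Vcan. Col3a1 in batch 3 was 17.5% of the mean of batches 1 and 2 for the high label, and 25.3% for the low one. The shares were 17.1% and 10.5% for Dcn, 20.0% and 5.39% for Lum, 23.2% and 29.5% for Nid1, and 26.2% and 25.7% for Fbn1. Of the genes known from macrophages, Vcan was at 59.9% and 28.4%, whereas Fn1 was at 75.2% and 196%, Tgfbi at 98.2% and 156%, and Thbs1 at 98.6% and 122.8%. Fn1 per kilobase was therefore 3.66 to 13.0 times Col3a1 in batches 1 and 2 and 46.5 and 45.2 times in batch 3.

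The comparison of batch 3 with batches 1 and 2, with the label as a term, was added after this pattern had been seen. edgeR called 0 of 14140 genes in it, the smallest adjusted p being 0.160. At an unadjusted p of 0.05 it had 14 matrix genes lower and 0 higher, beside 372 lower and 126 higher among all genes, and limma-voom also called 0. With an offset for GC content edgeR called 14 of the 31 matrix genes lower, where 0.82% of all tested genes were called lower, and DESeq2 called 10, where 0.476% of all genes were called lower. The 14 were Col3a1, Col5a1, Col5a2, Col6a1, Col6a2, Col6a3, Col4a1, Col18a1, Lamb1, Nid1, Dcn, Lum, Fbn1 and Sparc. Without the offset, Col5a1, Col4a1 and Col18a1 were not lower than in batches 1 and 2 under both labels. Labelled low replicate 3 was at 94.6%, 108% and 96.2% of the mean of batches 1 and 2 for these genes. Labelled high replicate 3 was at 26.0%, 32.4% and 35.9%. The log2 change without the offset was -2.24 ± 0.28 (SE) for Col3a1, -2.85 ± 0.31 for Dcn and -3.00 ± 0.47 for Lum. With the offset these were -2.37, -2.69 and -2.80 (adjusted p = 0.00147, 0.00125 and 0.00319). Leaving out 1 of the 6 libraries gave 2 to 21 matrix genes called lower. Without labelled high replicate 3 these were 13 lower and 8 higher, where 18.5% of all tested genes were called lower and 22.4% higher. Without labelled low replicate 3 they were 21 lower and 0 higher, where 5.41% were called lower. Both fits rest on a lone library of batch 3, which is assumed to vary like the others.

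**Figure D3:**
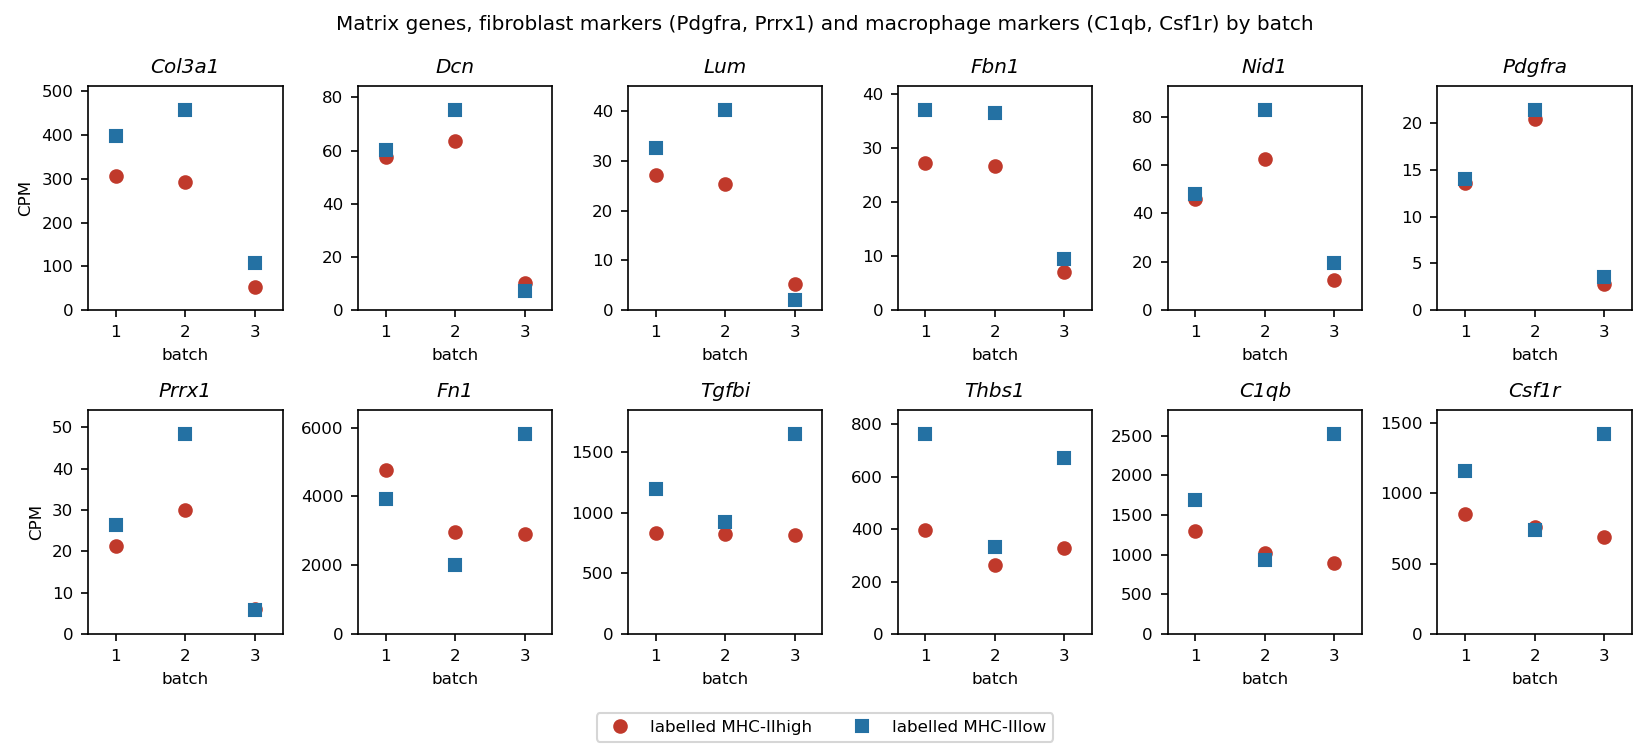
CPM (linear axes from 0) by batch for matrix genes, the fibroblast markers Pdgfra and Prrx1 and the macrophage markers C1qb and Csf1r, with circles for labelled high and squares for labelled low libraries. Col3a1, Dcn, Lum, Fbn1 and Nid1 are low in both libraries of batch 3, as are Pdgfra and Prrx1, while Fn1, Tgfbi and Thbs1 are not.

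Fibroblast markers divided in batch 3. Pdgfra, a fibroblast receptor, stood at 13.6, 20.5 and 2.75 CPM in the labelled high libraries against 14.1, 21.4 and 3.57 CPM in the labelled low ones, and Prrx1, a mesenchymal transcription factor, at 21.3, 30.1 and 6.15 and 26.4, 48.4 and 5.89 CPM. These 2 genes were chosen after their values were seen. The log2 changes in batch 3 were -2.46 and -2.29 (edgeR, adjusted p = 0.16 and 0.16, and 0.0024 and 0.00235 with the GC offset). Not all other markers of the list followed to this extent. The log2 change was -0.06 for Vim, -0.13 for S100a4, -0.31 for Pi16 and -0.89 for Twist1, none with an unadjusted p under 0.05 (edgeR). Vim stood at 1928 to 2994 CPM over the 6 libraries, and whether the sorted macrophages made Vim and S100a4 was not tested. In all, 11 of the 14 tested markers were below 0 in batch 3, against 47.5% of all tested genes. Of the 20 listed genes these 14 were tested, and edgeR called 0 in either comparison. At an unadjusted p under 0.05, 1 of the 14 was lower between labels, beside 1130 of all 14140 tested genes. In batch 3, 5 of the 14 were lower, where 2.63% of all tested genes were. DESeq2 called Pi16 lower between labels, where 2.42% of all genes were called in either direction. It called Pdgfra and Prrx1 lower in batch 3, where 0.476% of all genes were called lower, and limma-voom called 0. Tcf21 was at 0 in every library, and it and Cspg4 are named for their levels, after these were seen. The 20 summed to 2851 to 3187 CPM for the high label, and 2074 to 2547 CPM under the low one, of which Vim, S100a4 and Cspg4 made 96.4% to 99.4%. The other 17 summed to 48.1, 66.8 and 16.3 CPM for the high label, and to 57.9, 91.6 and 25.0 CPM under the low one. The part of such cells in the matrix values was not tested, and in bulk RNA fewer cells of a type and less RNA per cell cannot be told apart.

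Other cell types did not all follow. The epithelial keratins Krt8 and Krt18 were low in batch 3 as well, Krt18 at 5.51, 9.36 and 2.18 CPM and 5.59, 7.81 and 3.03 CPM. Their log2 changes of -1.76 and -1.45 missed the threshold (edgeR, adjusted p = 0.523 and 0.446). Krt8 was at 0.54 CPM in labelled low replicate 3, the level of 3 reads. Cdh1, the remaining tested epithelial marker, had the opposite sign in batch 3, at 0.25. The tumour line is epithelial in origin, and of the 10 epithelial markers Krt5, Cldn3, Cldn4 and Cldn7 were at 0 in all libraries. The 10 summed to 14.8 to 21.7 CPM for the high label, and to 41.0 to 42.6 CPM under the low one. Cdh1, which made most of the latter, was called lower under the high label, at -1.71 (edgeR, adjusted p = 0.018). Krt8 and Krt18 did not follow it between the labels, at -0.32 and 0.00 (edgeR, adjusted p = 0.788 and 0.997). The cells from which Cdh1 came were not tested. The 12 dendritic cell markers summed to 53.1 to 95.3 CPM for the high label, and 293 to 424 CPM under the low one, and edgeR called 4 of 9 tested lower (Ccl22, Ccr7, Itgax and Flt3), where 0.354% of all tested genes were called lower. DESeq2 called 8 of 12 lower, where 271 of all genes were called lower, and limma-voom 3 of 9, where 42 were. Of the 5 mesothelial markers none passed the filter on low counts, with sums of 0.18 to 0.71 CPM, and the 7 platelet markers summed to 62.8 to 110 CPM. edgeR called 0 of the 4 tested platelet markers, with 0 at an unadjusted p under 0.05, and DESeq2 and limma-voom called 0, while Pf4 passed with the GC offset and the replicate block (adjusted p = 0.0423). The macrophage markers Lyz2 and Adgre1 had fold changes of 0.93 and 0.90, which missed the threshold by edgeR (adjusted p = 0.122 and 0.132) and passed by DESeq2 and with the GC offset. Csf1r and C1qb went the other way, at -0.52 and -0.68 (edgeR, adjusted p = 0.44 and 0.447). Of the 12 macrophage markers 8 were below 0 between the labels, with a median of -0.36. In batch 3, 0 of the 12 macrophage markers had an unadjusted p under 0.05 (edgeR). The part of these cells in the matrix differences was not tested.

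The base composition of the genes went with the values of labelled low replicate 3. Over the 31 tested genes the log2 ratio of batch 3 to batches 1 and 2 correlated with the GC content of the longest transcript at a Spearman rho of 0.68 for the low label and 0.11 for the high one. All points of a label share the same 3 libraries, so these are descriptions across genes. Under the low label Lum (41.9% GC) and Dcn (37.4% GC) had ratios of -4.21 and -3.25, and Hspg2 (60.9% GC) and Ecm1 (58.3% GC) had 1.79 and 1.57. Under the high label, Hspg2 and Ecm1 stood at -1.06 and -0.75. The median ratio was -1.48 for the high label, against -0.38 for the low one.

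**Figure D4:**
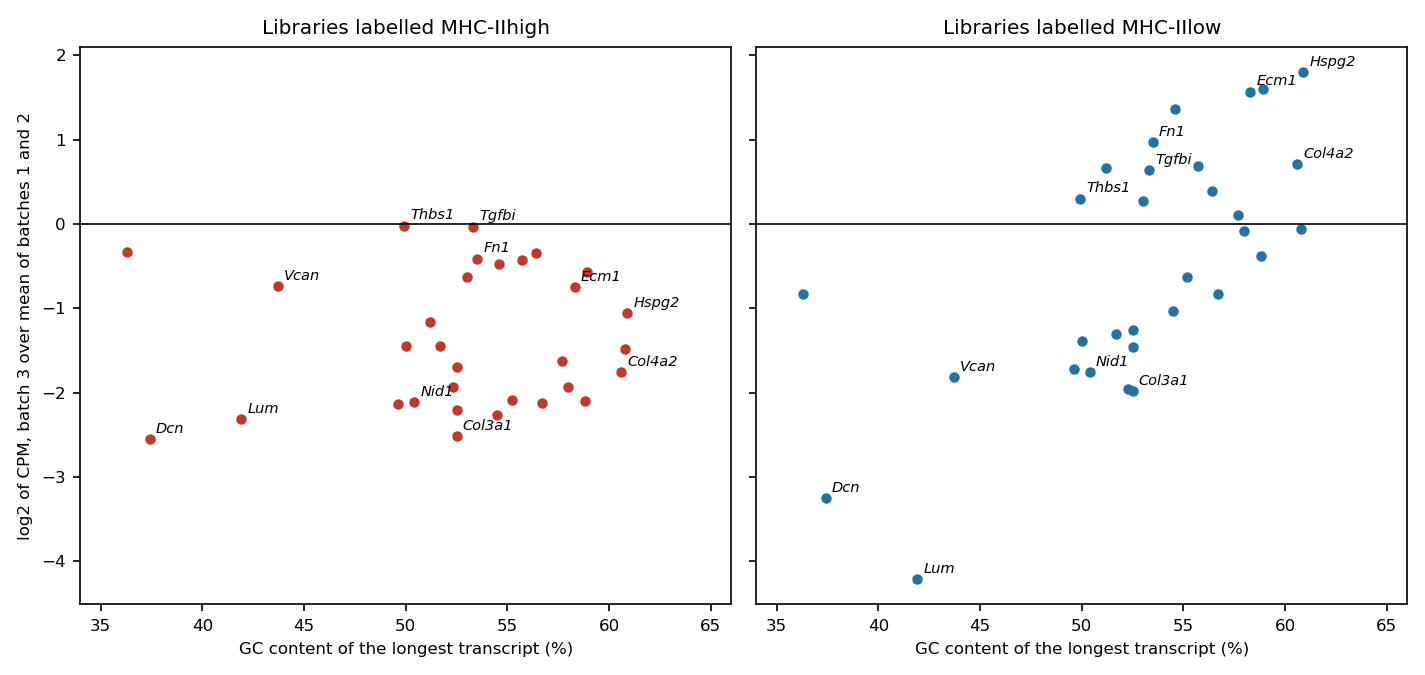
Log2 ratio of CPM in batch 3 to the mean of batches 1 and 2, over the GC content (percent) of the longest transcript, for the 31 tested matrix genes under each label. Under the low label the ratio climbs from Lum and Dcn to Hspg2 (rho 0.68), and under the high label it does not follow GC content in this way (rho 0.11).

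Genes of the wider matrix gave 0 calls between the labels by edgeR in each of 4 further lists. At an unadjusted p under 0.05, 5 of 80 tested genes were higher and 4 lower, beside 574 higher and 1130 lower of all 14140 tested genes. limma-voom also called 0. DESeq2 called Spp1 and Cd36 higher and Sdc4 lower, where 2.42% of all genes were called. edgeR with the GC offset called Cd36 and Sdc4, where 156 of all genes were called higher and 219 lower. With the replicate block added it also called Spp1, where 246 of all genes were called higher and 357 lower. Of 31 other collagens 10 were tested, and Col14a1, a fibril-associated collagen, was the most abundant, at 194, 170.3 and 214 CPM against 179, 138 and 158 CPM. Its levels overlapped between labels, and neither library of batch 3 was low. Col8a1 and Col16a1 were the 2 of these 10 with an unadjusted p under 0.05 in batch 3 (edgeR), and are named after their values were seen. Both were lower there, where 2.63% of all tested genes were. edgeR with the GC offset called 1 of the 10 lower in batch 3, where 0.82% of all tested genes were called lower. Of 48 other glycoproteins and proteoglycans 23 were tested. Spp1, osteopontin, stood at 1122, 1031 and 1454 CPM in the labelled high libraries against 676, 777 and 700.2 CPM in the labelled low ones, without overlap, for a fold change of 0.74 (edgeR, adjusted p = 0.218, and 0.0334 with the GC offset and the replicate block). Srgn, a proteoglycan of leukocyte granules, had a fold change of 0.66 and Ltbp3, which binds latent TGF-beta, one of -1.24 (adjusted p = 0.39 and 0.329). In batch 3, 10 of these 23 were lower at an unadjusted p under 0.05 and 0 higher, where 2.63% of all tested genes were lower, among them Thbs2 (-2.55), Aspn (-3.27) and Dpt (-2.51), named after their values were seen. edgeR with the GC offset called 6 of the 23 lower and 0 higher, beside the 0.82% of all tested genes called lower.

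Of 29 processing genes 21 were tested. P4ha1, a subunit of prolyl hydroxylase, stood at 201, 192 and 204 CPM in the labelled high libraries against 147, 169 and 104 CPM in the labelled low ones, without overlap (fold change 0.50, edgeR, adjusted p = 0.405). The chaperone gene Ppib and the glycosyltransferase gene Colgalt1 had fold changes of 0.31 and -0.32. In batch 3, edgeR with the GC offset called 5 of the 21 lower, where 0.82% of all tested genes were, including Serpinh1, a collagen chaperone, at 9.02, 8.60 and 1.502 and 13.1, 13.3 and 5.71 CPM (named after its values were seen). Of 27 receptors 26 were tested, of which edgeR called 0 lower in batch 3 and 2 with the GC offset, and the median log2 change there was -0.16. Cd36, a scavenger receptor that binds thrombospondin, stood at 188, 148 and 179 CPM in the labelled high libraries against 71.6, 54.9 and 32.3 CPM in the labelled low ones. These groups did not overlap, and the fold change of 1.69 fell short of the threshold (edgeR, adjusted p = 0.0655), while DESeq2 gave an adjusted p of 1.43e-05 and edgeR with the GC offset one of 0.0145. The syndecans Sdc4 and Sdc1 had fold changes of -0.83 and -0.91 (edgeR, adjusted p = 0.132 and 0.313), of which Sdc4 passed with the GC offset, at 0.0124. The integrin chain Itgav had a fold change of 0.40 (edgeR, adjusted p = 0.398).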

How the data were processed

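The authors deposited raw counts of reads in 55487 Ensembl genes for each of the 6 libraries, with 5 summary lines, made with HTSeq after FastQC, Trimmomatic and STAR on GRCm38, per the submitters' processing notes. No tool version, annotation release or strand setting is given in those sources. Symbols, exon lengths and GC content came from GENCODE M21, which matched 55227 genes. Reads in no feature (35.2% to 49.4% of a library's listed reads), ambiguous ones (0.324% to 0.864%) and those with several alignments (7.6% to 17.4%) were not used.

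The main test was edgeR 4.0.16 in R 4.3.3 (TMM, default filter on low counts, quasi-likelihood test, Benjamini-Hochberg adjusted p under 0.05 over 14140 genes), labelled MHC-II high over labelled low without further terms. CPM are TMM-scaled, and the standard error is the fold change over the square root of F. Alternatives were RLE and total-count scaling, DESeq2 1.42.0, limma-voom 3.58.1, other filters, removal of rRNA and mitochondrial genes, a GC offset (local regression on GC content, span 0.4), and libraries left out. The comparison of batch 3 was added after the data were seen.

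The labels give the same batch number to 1 library of each label, which pairs them. Deviations from the label means correlated at 0.146, 0.316 and -0.0718 in batches 1, 2 and 3. Pairs of libraries from different batches correlated at -0.438 to 0.292. The replicate block was an alternative. The matrix genes and lists were chosen with earlier results of these data known. Named genes are the 33 of the set, 4 MHC class II genes that check the labels, and from each further list at most 4 tested genes, those of lowest p among genes that reach 1 CPM. Where another gene is named, the text says that its values were known.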

Additional observations from a re-analysis of the deposited data

How the results depend on the processing

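Across all genes, 13 were called higher and 50 lower between the labels. These counts were 109 and 271 with DESeq2, 113 and 436 without a filter on low counts, 156 and 219 with a GC offset, and 246 and 357 with the GC offset and the replicate block. With the replicate block alone 1 was higher, with total counts 8, and without batch 3 there were 0 higher and 28 lower. Leaving out each library in turn gave 0 to 246 higher and 8 to 784 lower, the most without labelled low replicate 2. Of the matrix genes, 0 were called. DESeq2 and the fit without a filter called 1 lower (Col15a1), the GC offset with the replicate block 1 higher (Lamc1) and 1 lower (Thbs1), and leaving out each library 0 to 2 lower. The replicate block alone called 0 matrix genes, with Col15a1 at an adjusted p of 0.224, and changed no call of the set.

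In batch 3, 0 genes were called. DESeq2 called 82 lower, and the GC offset 116 lower and 3 higher. Leaving out each library gave 3 to 2674 lower and 0 to 3238 higher, the highest of each without labelled high replicate 3. Of the matrix genes DESeq2 called 10 lower and the GC offset 14, and leaving out each library gave 2 to 21 lower and 0 to 8 higher. The cause of these shifts was not tested.

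No fold change between the labels that turned its sign had passed the test in either setting. With the GC offset Col18a1 was at 0.16, Lama4 at 0.00, Lamb2 at 0.25, Hspg2 at 0.14 and Fn1 at 0.24, and with the GC offset and the replicate block Col18a1 was at 0.24, Lamb2 at 0.30, Hspg2 at 0.15, Ecm1 at 0.01 and Fn1 at 0.27. With the replicate block alone Dcn was at 0.05. Total counts, which moved the median of all genes from -0.02 to 0.25, gave Col18a1 0.08, Lama4 0.13, Lamb2 0.22 and Fn1 0.32. DESeq2 gave Lama4 0.02, and the fit without a filter Lamb2 0.01. Without batch 3 the values were 0.12 for Col18a1, 0.11 for Lama4, 0.31 for Lamb2, 0.45 for Hspg2, 0.23 for Ecm1 and 0.39 for Fn1. Leaving out each library ranged from -0.79 to 0.02 for Col6a2, -0.57 to 0.13 for Col18a1, -1.40 to 0.38 for Lama4, -0.67 to 0.01 for Lamb1, -0.51 to 0.40 for Lamb2, -0.77 to 0.26 for Nid1, -0.99 to 0.17 for Hspg2, -0.63 to 0.35 for Dcn, -0.93 to 0.09 for Lum, -0.67 to 0.10 for Sparc, -1.03 to 0.01 for Ecm1, -0.87 to 0.54 for Loxl2 and -0.42 to 0.26 for Fn1. The other 18 tested genes kept their sign under all 17 alternatives that could be fitted. Labelled low replicate 3 holds 4669375 reads outside the rRNA copy and mitochondrial genes, the fewest, so that 1 read is 0.18 CPM there against 0.036 to 0.056 elsewhere.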
